A study of Mus musculus with 43 samples.

Results

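The 10 genes described here encode proteins that end the light response of photoreceptors and restore their second messenger. They are Grk1, Rgs9, Rgs9bp, Gnb5, Rcvrn, Pdc, Guca1a, Guca1b, Gucy2e and Gucy2f, chosen by symbol from the 54532 genes of the deposited count table. All 10 genes passed the filter on low counts, which left 18173 genes for the tests.

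In darkness, cyclic GMP holds channels of the photoreceptor outer segment open. Light activates rhodopsin, transducin and phosphodiesterase in turn, cyclic GMP falls, the channels close and calcium drops. Recovery needs the phosphorylation of rhodopsin by the kinase GRK1, the hydrolysis of GTP on transducin by a complex of RGS9, its anchor R9AP (Rgs9bp) and the long form of Gβ5 (Gnb5), and new cyclic GMP from the membrane guanylate cyclases GC-E (Gucy2e) and GC-F (Gucy2f). The calcium sensors GCAP1 (Guca1a) and GCAP2 (Guca1b) switch the cyclases on when calcium is low, recoverin (Rcvrn) holds GRK1 back when calcium is high, and phosducin (Pdc) binds the βγ subunits of transducin.

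Retinas were collected 3, 7 and 14 days post-lesion (dpl) from C57BL/6J mice lasered at 9 weeks of age to induce choroidal neovascularization (CNV), the growth of choroidal vessels towards the retina. Every group carried the lesion, and control mice received no short-chain fatty acids (SCFA). SCFA mice drank 67.5 mM acetate, 40 mM propionate and 25 mM butyrate from 3 weeks before the laser until collection. These are the labels' mM values, and for propionate and butyrate the g/L values beside them do not match. The 12 groups of males and females, with or without SCFA, at each day held 3 to 5 libraries, of which each pooled 2 retinas of different mice, so the p-values below measure the spread between pools. No unlasered retina was analysed here, and a whole retina was measured, in which fewer photoreceptors and less RNA per photoreceptor cannot be told apart.

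The 43 libraries held 14826957 to 21507527 counts, with a median of 17683615. They stand in the table in 2 runs of columns, 31 and then 12, which differed in the counts of 53.3% of the genes tested (adjusted p under 0.1 by edgeR's quasi-likelihood test), and nothing in the labels says what the runs are. The second run held libraries of 7 of the 12 groups. Female SCFA replicate 2 at 3 dpl was left out because its lens markers summed to 249239 CPM (counts scaled to a common library size), against at most 716 in the other 42. The library labelled female control replicate 2 at 7 dpl held 784 counts of 4 genes of chromosome Y, where the other 21 libraries labelled female held 3 or fewer. Mitochondrial mRNAs took over 10% of the counts in female SCFA replicate 3 at 3 dpl and in male SCFA replicates 1 and 3 at 7 dpl. All 6 rod markers were detected, with summed levels of 41605 to 89692 CPM in the first run and 58698 to 78215 CPM in the second. No marker was at 0 in every library. CPM were scaled by the trimmed mean of M values (TMM) throughout.

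Per kilobase of its longest annotated transcript, Guca1a had the highest level of the 10 genes, with a median of 2405 CPM per kb over the 42 libraries. It was followed by Rcvrn at 1332, Guca1b at 1266 and Pdc at 989 CPM per kb. Gnb5 stood at 441, Grk1 at 209 and Rgs9bp at 136 CPM per kb, each above the next gene in all 42 libraries. The lowest 3 were Gucy2e at 62.9, Rgs9 at 35.7 and Gucy2f at 8.53 CPM per kb. Rcvrn exceeded Guca1b in 32 of the 42 libraries, and their order turned in the second run, where their medians were 1343 and 1369 CPM per kb. Gucy2e exceeded Rgs9 in 37 of the 42 libraries. The anchor Rgs9bp was therefore detected at a higher level per length than the Rgs9 it holds in the outer segment in 40 of the 42 libraries, the exceptions being female control replicate 2 at 14 dpl and male control replicate 4 at 3 dpl. GC-E mRNA was at a higher level than GC-F mRNA in all 42. Values per length depend on the transcript model, and the annotation here gives the longest one, which for Gnb5 need not be the photoreceptor form.

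**Figure D1:**
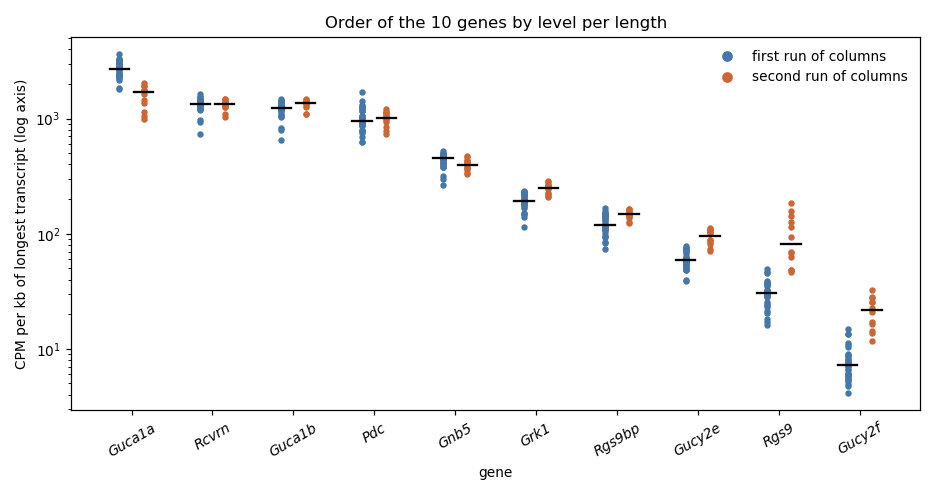
Levels of the 10 genes in CPM per kb of longest transcript, on a log axis, in the order of their medians over 42 libraries. Each point is a library of the first (30) or second (12) run of columns and bars are medians per run, and the points of Rgs9 and Gucy2f spread the most.

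The genes differed in how much they varied between libraries. Rgs9 spanned a factor of 11.5 between its lowest and highest library and Gucy2f a factor of 7.90, where Guca1a spanned 3.69 and Gnb5 1.97. The sparsest gene, Gucy2f, still had at least 532 counts in every library.

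Rhodopsin kinase Grk1 lies at chr8:13405081-13421951 on the plus strand of GRCm38. In the GTPase complex, Rgs9 lies at chr11:109225355-109298129 and the single-exon gene Rgs9bp at chr7:35578993-35585582, both on the minus strand, and Gnb5 at chr9:75306288-75345876 on the plus strand. Exons of Gnb5 share 248 bases with an antisense gene, Gm19531, and the counting is not stated to use strand, but Gm19531 had 3038 counts over all libraries against 684090 of Gnb5. Rcvrn lies at chr11:67695326-67703333 and Pdc at chr1:150319417-150333906, both on the plus strand. The GCAP genes are neighbours on chromosome 17 in opposite orientation, Guca1b at chr17:47385393-47392967 on the plus strand and Guca1a at chr17:47394558-47400584 on the minus strand. Gucy2e lies at chr11:69218117-69237036 and Gucy2f at chrX:142081160-142196931, both on the minus strand.

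RefSeq (GRCm38.p6) gave a promoter for 7 of the 10 genes. TAATCC, the core of the sequence that the photoreceptor factor CRX and its relatives bind, was searched on both strands in the 250 bases before each start. It occurred before 4 of the 7, Gnb5, Guca1a, Gucy2e and Gucy2f, against 6.25% of all 32851 RefSeq promoters. The promoters of Grk1, Rgs9 and Pdc did not hold these letters in this window. The cyclases and Guca1a are shown because their levels differed most between the runs of columns beside Rgs9. The windows are chr17:47400607-47400856, chr11:69237023-69237272 and chrX:142196937-142197186 in the order below, all on the minus strand, and capitals mark TAATCC or its reverse complement.
Guca1a: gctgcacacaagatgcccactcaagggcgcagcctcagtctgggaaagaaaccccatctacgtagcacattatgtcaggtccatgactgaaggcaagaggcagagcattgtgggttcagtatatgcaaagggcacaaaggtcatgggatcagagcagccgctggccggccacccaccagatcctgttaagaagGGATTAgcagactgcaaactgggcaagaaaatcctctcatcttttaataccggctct
Gucy2e: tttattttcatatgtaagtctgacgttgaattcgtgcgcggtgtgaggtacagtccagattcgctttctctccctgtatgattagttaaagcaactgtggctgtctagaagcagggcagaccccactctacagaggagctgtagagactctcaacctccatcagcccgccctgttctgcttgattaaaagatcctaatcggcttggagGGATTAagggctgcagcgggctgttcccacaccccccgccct
Gucy2f: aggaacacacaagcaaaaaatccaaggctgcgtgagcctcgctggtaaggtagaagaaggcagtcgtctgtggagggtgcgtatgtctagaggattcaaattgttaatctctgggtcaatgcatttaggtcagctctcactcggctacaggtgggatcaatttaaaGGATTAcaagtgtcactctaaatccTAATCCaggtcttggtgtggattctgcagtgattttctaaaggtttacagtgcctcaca

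The match starts 57 bases before the start of Guca1a, 42 before that of Gucy2e, and 84 and 59 before that of Gucy2f. Of the other motifs, the E-box CACCTG was found before 2 of the 7 genes against 17.2% of all promoters, and TATAAA before 2 against 12.4%. The letters TGACCTTTG were found before 1, Guca1a, against 0.426%. A match is only a run of letters, and binding was not measured.

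Among all libraries, the largest differences of these genes were those between the runs of columns. With the 12 groups in the fit, 7 of the 10 genes differed between the runs, 6 higher and 1 lower in the second, where 53.3% of all genes were called. The median of the 10 was 0.25 on the log2 scale against 0.01 over all genes tested. What separates the runs in the laboratory cannot be told from the labels.

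Rgs9, which speeds up the shut-off of transducin, had the largest difference. Its level was 56.1 to 171 CPM (median 106) in the 30 libraries of the first run and 160.4 to 643 CPM (median 281) in the 12 of the second. Every library of the second run was above every library of the first in all 7 groups that hold both. A run had only 1 library in female SCFA at 7 and 14 dpl, female controls at 14 dpl and male SCFA at 3 dpl. Lack of overlap is easily reached there, for this gene and those below, and its share over all genes was not computed. The difference was 1.54 on the log2 scale (SE 0.16, adjusted p = 5.43e-09), higher than that of 99.7% of the genes tested. In male controls at 3 dpl, for example, replicates 1 and 2 of the first run had 111 and 131 CPM and replicates 3 and 4 of the second had 495 and 549 CPM.

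Its partners moved less. Rgs9bp ranged from 487 to 1093 CPM (median 789.6) in the first run and from 819 to 1087 CPM (median 973) in the second. The Rgs9bp difference was 0.29 (SE 0.09, adjusted p = 0.00766), with overlapping ranges. Gnb5, with medians of 953 and 840.04 CPM, did not pass (-0.03, SE 0.08, adjusted p = 0.811). Grk1 rose from 847–1761 CPM (median 1441) to 1538–2152 CPM (median 1866), a difference of 0.46 (SE 0.08, adjusted p = 1.40e-05). In 6 of the 7 groups with both runs all second-run values of Grk1 lay above the first-run values.

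Both guanylate cyclases were higher in the second run. Gucy2f had 33.3 to 122 CPM (median 58.2) in the first run and 95.1 to 263 CPM (median 178) in the second, without overlap in any of the 7 groups. The difference was 1.42 (SE 0.17, adjusted p = 4.30e-08). Gucy2e had 325 to 647 CPM (median 489.9) and 585 to 930 CPM (median 789.7), without overlap in 6 of the 7 groups, and differed by 0.66 (SE 0.09, adjusted p = 3.13e-07). As the rarer cyclase mRNA moved more, the ratio of Gucy2f to Gucy2e per length had a median of 0.121 in the first run (0.0928 to 0.197) and of 0.230 in the second (0.167 to 0.296).

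The 2 GCAP genes went apart. Guca1a fell from 1592–3171 CPM (median 2377) to 861–1794 CPM (median 1481), below the first run in all 7 groups. Its difference was -0.75 (SE 0.11, adjusted p = 9.00e-07). Guca1b had medians of 2077 and 2283 CPM and a difference of 0.22 (SE 0.09, adjusted p = 0.0550), with overlap in 3 of the 7 groups. The ratio of Guca1a to Guca1b per length accordingly had a median of 2.28 in the first run and 1.16 in the second. Neither Rcvrn (0.07, SE 0.09, adjusted p = 0.514) nor Pdc (0.00, SE 0.09, adjusted p = 0.977) passed the test.

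**Figure D2:**
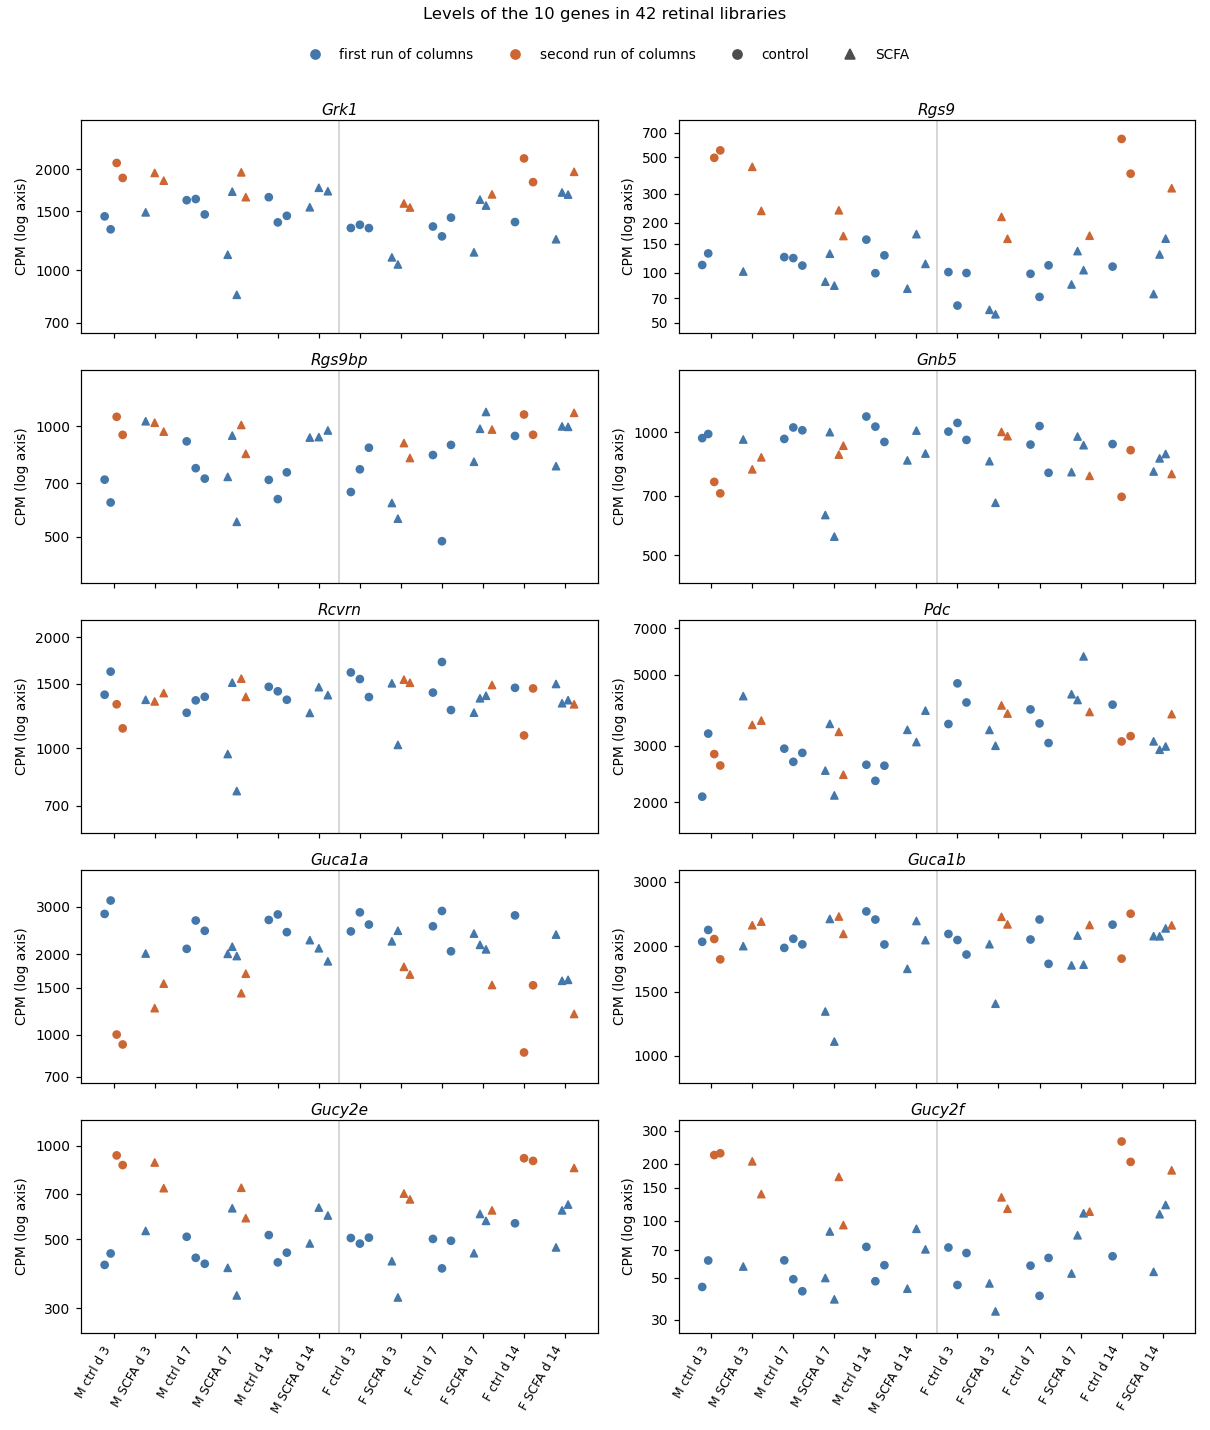
CPM of the 10 genes, on log axes, in each of the 42 libraries by group (M, male. F, female. d, dpl). Circles are controls, triangles SCFA, and colour gives the run of columns, with the second run apart from the first for Rgs9, Gucy2f and Guca1a in every group that holds both.

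The length of the transcripts counted also differed between the runs. The geometric mean of transcript length over a library's nuclear protein-coding counts was 3095 to 3530 bases (median 3325) in the first run and 3418 to 3828 bases (median 3560) in the second. Over all genes, the median difference between the runs went from -0.51 for transcripts under 1 kb, the class of Guca1a (873 bases), to 0.17 over 8 kb, the class of Gucy2e (8331 bases) and Gucy2f (8122 bases). Across 14881 genes, which are not independent replicates, the rank correlation of the difference with length was 0.38. Rgs9, at 3464 bases, belongs to a class whose median difference was 0.01. With the mean length as a further covariate, a choice made with the data in view, the difference between the runs was 0.82 for Rgs9 (SE 0.16, adjusted p = 0.000878), 0.65 for Gucy2f (SE 0.16, adjusted p = 0.00486), 0.33 for Gucy2e and 0.24 for Grk1, all still called. Guca1a was called at -0.20, Guca1b at 0.41 and Rcvrn at 0.30, whereas Rgs9bp turned to -0.08 and was not called.

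**Figure D3:**
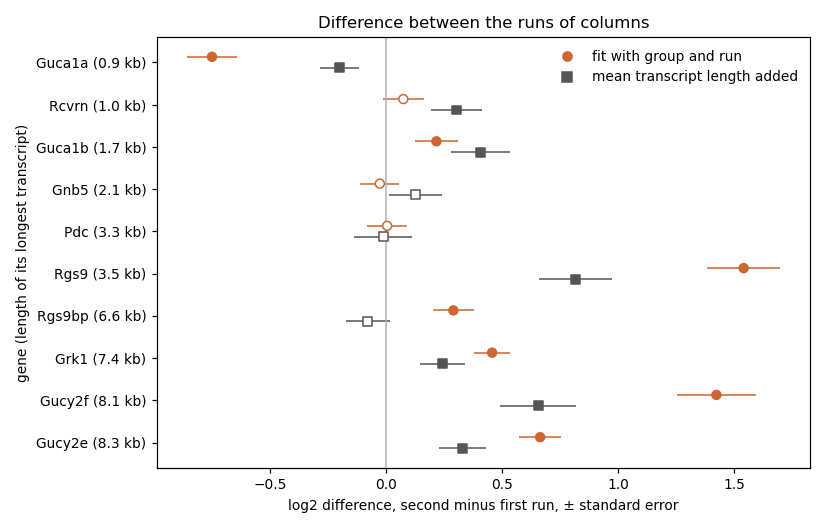
Log2 difference between the second and the first run of columns (x axis, bars ± SE) for the 10 genes ordered by the length of their longest transcript. Circles are the fit with group and run and squares that with mean transcript length added, filled where the adjusted p is under 0.1, and the squares of Rgs9, Gucy2f, Gucy2e and Guca1a lie nearer to 0 than their circles.

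Within the second run most of the 10 genes followed the mean transcript length of their library, also some that differed little between the runs. Fewer did so in the first run, and the share of all genes that did was not computed. In the first run (n = 30), Gucy2f had a Pearson r of 0.74 with this length (adjusted permutation p = 3.5e-05, Spearman rho 0.69, adjusted p = 0.000156) and 0.69 without the 2 most distant libraries. In the second run (n = 12), r was 0.91 (adjusted permutation p = 0.000127, rho 0.92, adjusted p = 0.000168) and 0.89 without them. Rgs9 had r of 0.54 (adjusted permutation p = 0.00317, rho 0.53, adjusted p = 0.00458) in the first run and 0.95 (adjusted permutation p = 3.5e-05, rho 0.96, adjusted p = 7.0e-05) in the second, and 0.55 and 0.92 without the 2 most distant libraries. Guca1a ran the other way, with r of -0.79 (adjusted permutation p = 3.5e-05, rho -0.78, adjusted p = 7.0e-05) and -0.98 (adjusted permutation p = 3.5e-05, rho -0.97, adjusted p = 5.6e-05), and -0.81 and -0.95 without those libraries. The 2 cyclase genes followed each other, with r of 0.89 (adjusted permutation p = 3.5e-05, rho 0.90, adjusted p = 5.6e-05) in the first run and 0.97 (adjusted permutation p = 3.5e-05, rho 0.94, adjusted p = 0.000178) in the second, and 0.90 and 0.94 without the 2 most distant libraries. Rgs9bp had r of 0.85 in the first run (adjusted permutation p = 3.5e-05, rho 0.84, adjusted p = 5.6e-05) and 0.79 without the 2 most distant libraries. Gnb5 and Rcvrn, which were not called between the runs, fell with length in the second run, with r of -0.88 (adjusted permutation p = 0.000409, rho -0.86, adjusted p = 0.00110) and -0.87 (adjusted permutation p = 0.000560, rho -0.82, adjusted p = 0.00303), and -0.76 and -0.69 without those libraries. Guca1b had -0.75 there (adjusted permutation p = 0.00667, rho -0.60, adjusted p = 0.0507), which was -0.33 without them and so rests on them. Pdc gave 0.17 (adjusted permutation p = 0.395, rho 0.10, adjusted p = 0.600) and -0.43 (adjusted permutation p = 0.194, rho -0.55, adjusted p = 0.0821), and 0.05 and -0.24 without them. In the first run, r was -0.14 for Gnb5 (adjusted permutation p = 0.489, rho -0.31, adjusted p = 0.101). It was -0.24 for Rcvrn (adjusted permutation p = 0.227, rho -0.44, adjusted p = 0.0211) and -0.10 for Guca1b (adjusted permutation p = 0.610, rho -0.15, adjusted p = 0.434). In all, 28 such relations were computed, and p-values were adjusted over them by Benjamini-Hochberg. The smallest unadjusted p that 100000 permutations can give is 1e-05. The permutations moved values over all libraries of a run without regard to sex, day or treatment. In the second run the controls held the long end (3584 to 3828 bases against 3418 to 3623 for SCFA). These p-values therefore also take in differences between groups.

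**Figure D4:**
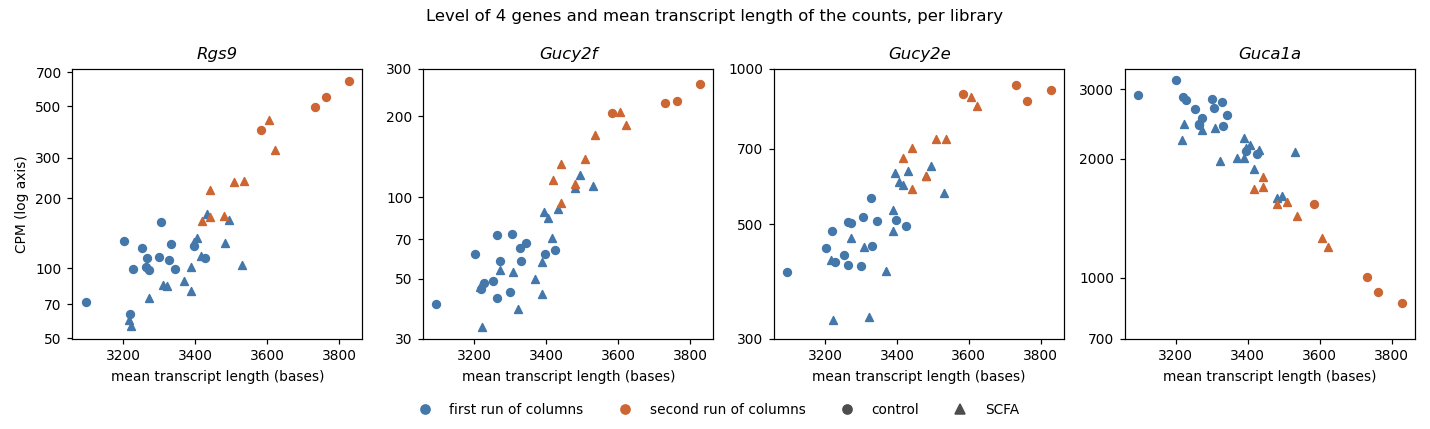
CPM of Rgs9, Gucy2f, Gucy2e and Guca1a (log axes) against the geometric mean transcript length of the counts in bases, 1 point per library, with colour for the run of columns and circles for controls, triangles for SCFA. Rgs9 and the cyclases rise and Guca1a falls with length inside the second run, where controls lie at the long end, 3584 to 3828 bases against 3418 to 3623 for SCFA.

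The response to SCFA was then asked for in each sex and at each day, with the run of columns as a block. None of the 10 genes was called in any of the 6 comparisons by edgeR. At 3 dpl 0.0275% of all genes were called in males and 0.418% in females, at 7 dpl 23.8% and 0.941%, and at 14 dpl 9.68% and 0%. At an unadjusted p under 0.05, 1 of the 10 passed in males at 3 dpl (Pdc), 2 in males at 7 dpl (Grk1, Gnb5), 2 in males at 14 dpl (Rgs9bp, Pdc), 1 in females at 7 dpl (Pdc) and 0 in females at 3 and 14 dpl. Over all 18173 genes, 2187, 5573 and 4096 had such a p in males at 3, 7 and 14 dpl and 2717, 3115 and 579 in females. DESeq2 called 2 of the 10 in males at 14 dpl and 0 in each of the other 5, against 146, 4500 and 2342 of all genes in males and 449, 999 and 1 in females. The lowest adjusted p-values were those of Pdc in males at 14 dpl, with 0.45 (SE 0.18, adjusted p = 0.121), and of Grk1 in males at 7 dpl, with -0.32 (SE 0.14, adjusted p = 0.125). The Grk1 value was -0.16 without male SCFA replicate 3 at 7 dpl, -0.07 without all 3 libraries rich in mitochondrial mRNA, and -0.46 and called without male SCFA replicate 2. It was also called without replicate 4, at -0.36.

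Averaged over the 6 comparisons, Rgs9 was lower and Pdc higher with SCFA, 2 of the 10 genes where 36.7% of all genes were called. The median of the 10 was -0.06, against -0.01 over all genes tested.

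Rgs9 differed by -0.31 (SE 0.12, adjusted p = 0.0461). In the first run the 15 controls had 63.4 to 159 CPM (median 110.5) and the 15 SCFA libraries 56.1 to 171 CPM (median 102). In the second run the 4 controls had 397 to 643 CPM and the 8 SCFA libraries 160.4 to 436 CPM. The treatments overlapped in both runs. Of the 8 sets of sex, day and run that hold both treatments, the SCFA mean was lower in 6, and in 4 all SCFA libraries lay below the controls. A treatment had only 1 library in the sets of females at 14 dpl, in each run, and of males at 3 dpl in the first run. Lack of overlap is easily reached there, and its share over all genes was not computed. Without the block the difference was -0.07 (adjusted p = 0.861), where 8 of the 12 libraries of the second run, in which Rgs9 was high, are SCFA libraries, and in the first run alone it was -0.14 (adjusted p = 0.474). These were the settings that ended the call, which was kept in 11 of 13, with adjusted p-values from 6.86e-06 to 0.861. The call was also lost without male control replicate 1 at 14 dpl (adjusted p = 0.101) and without female control replicate 2 at 14 dpl (-0.24, adjusted p = 0.121), the library with the highest Rgs9 of all. It was kept without female control replicate 2 at 7 dpl (-0.33, adjusted p = 0.0330) and without the 3 libraries rich in mitochondrial mRNA (-0.29, adjusted p = 0.0973). With the mean transcript length as a covariate, it was -0.38 (SE 0.08, adjusted p = 0.000735).

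Pdc differed by 0.16 (SE 0.07, adjusted p = 0.0781). The SCFA libraries lay wholly above the controls of the same sex, day and run in 5 of the 8 sets and wholly below in 2. Among these were the sets with 1 library of a treatment, females at 14 dpl in each run and males at 3 dpl in the first run. In males at 14 dpl the controls had 2618, 2332 and 2600 CPM and the SCFA libraries 3366, 3083 and 3866 CPM. In females at 3 dpl the first-run controls had 3510, 4705 and 4100 CPM and the SCFA libraries 3365 and 3001 CPM. Both of these sets were free of overlap, in opposite directions. The call was lost in 6 of the 42 fits that left out a library, in turn male SCFA replicate 3 at 14 dpl, male SCFA replicate 1 and female control replicate 1 at 3 dpl, male control replicate 2 at 7 dpl, and male and female control replicate 2 at 14 dpl, with adjusted p-values up to 0.171. It was kept in 9 of 13 other settings, with adjusted p-values from 0.0155 to 0.344, and lost among others without the block (adjusted p = 0.101) and in the first run alone (0.12, adjusted p = 0.344). Without the 3 libraries rich in mitochondrial mRNA it was 0.22 (SE 0.07, adjusted p = 0.0155).

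**Figure D5:**
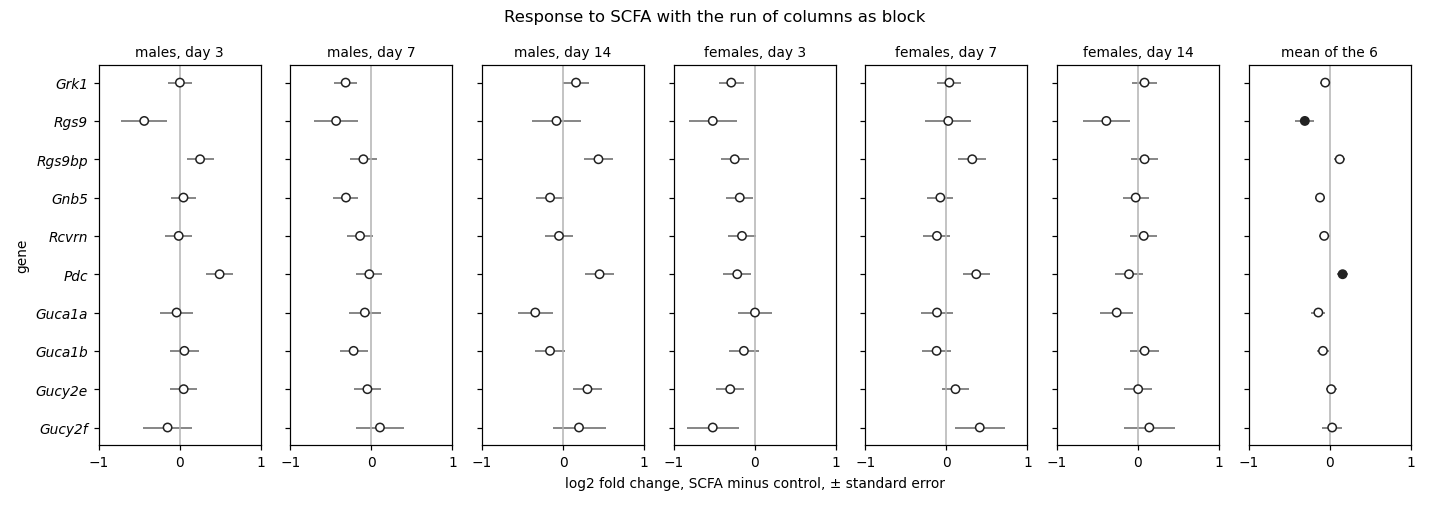
Log2 fold change, SCFA minus control, with its SE for the 10 genes in males and females at 3, 7 and 14 dpl and for the mean of the 6, with the run of columns as block. Filled points have an adjusted p under 0.1, which only Rgs9 and Pdc have, in the mean of the 6.

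The response of several genes to SCFA differed between the runs, in a term added after the data had been seen. This term was called for 23.4% of all genes and for 4 of the 10, Guca1a, Rgs9, Rcvrn and Gnb5. Among controls, only males at 3 dpl and females at 14 dpl had libraries of the second run, 4 in all. Second-run SCFA libraries came also from females at 3 and 7 dpl and males at 7 dpl. The term therefore rests on unlike sets of sex and day in controls and SCFA libraries, which it does not separate. For Guca1a the response was higher by 0.99 in the second run (SE 0.18, adjusted p = 0.000887). Its SCFA mean was lower than the control mean in all 6 sets of the first run and higher in both sets of the second. In males at 14 dpl, all first-run libraries, Guca1a had 2684, 2813 and 2417 CPM in controls and 2257, 2105 and 1881 CPM with SCFA. In males at 3 dpl the second-run controls had 1004 and 922 CPM and the SCFA libraries 1259 and 1554 CPM. Controls and SCFA libraries thus did not overlap in either set and stood in opposite order. Fitted on the first run alone, the mean response of Guca1a was -0.35 (adjusted p = 0.00166) and that of Gnb5 -0.20 (adjusted p = 0.0563), with Gnb5 also called in males at 7 dpl (-0.46, adjusted p = 0.0472). For Rgs9 the response was lower in the second run by -0.87 (SE 0.32, adjusted p = 0.0550), and it was higher for Rcvrn by 0.46 (SE 0.18, adjusted p = 0.0770) and for Gnb5 by 0.44 (SE 0.17, adjusted p = 0.0819). Gucy2f, at -0.79 (SE 0.35), did not pass (adjusted p = 0.115). Mean transcript length moved with these differences. It was higher in SCFA libraries (median 3389 bases) than in controls (3273) in the first run and lower (3494 against 3747) in the second, and its part in them was not tested.

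The study's own lists name some of the libraries in males at 7 dpl and females at 14 dpl and all of them in males at 14 dpl. With those alone, fitted by pair of groups and without the block, further genes were called. In males at 7 dpl, where 19.1% of all genes were called, 4 of the 10 were called. Gucy2f rose by 1.21 (SE 0.23, adjusted p = 0.0188), Gucy2e by 0.52 (SE 0.12, adjusted p = 0.0287) and Rgs9 by 0.59 (SE 0.18, adjusted p = 0.0623), and Guca1a was at -0.45 (SE 0.16, adjusted p = 0.0864). The 3 controls of that comparison, with 61.9, 49.3 and 42.5 CPM of Gucy2f, all belong to the first run. Of its 3 SCFA libraries, replicate 2 of the first run had 88.0 CPM and replicates 4 and 5 of the second had 171 and 95.1 CPM, all above the controls. Replicates 1 and 3, which are not listed, had 49.99 and 38.5 CPM and lay among or below them. With all 5 and the block, Gucy2f was at 0.11 (SE 0.30, adjusted p = 0.853), and the other 2 genes that rose turned in sign, Rgs9 to -0.43 (SE 0.27, adjusted p = 0.290) and Gucy2e to -0.05 (SE 0.16, adjusted p = 0.875). Replicates 1 and 3 had 13.8% and 14.8% mitochondrial mRNA and the lowest rod marker sums of the 42 libraries. The block and these libraries entered the fit together, and the part of each in the change was not tested.

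In females at 14 dpl the imbalance was reversed, with 3 first-run SCFA libraries against 2 second-run controls, and so were the signs. There 17.7% of all genes and 3 of the 10 were called. Rgs9 was at -2.08 (SE 0.30, adjusted p = 0.0536), Gucy2f at -1.29 (SE 0.28, adjusted p = 0.0569) and Gucy2e at -0.62 (SE 0.15, adjusted p = 0.0594). The listed controls had 643 and 397 CPM of Rgs9 and the listed SCFA libraries 74.4, 129 and 161 CPM. The unlisted control of the first run had 109 CPM and the unlisted SCFA library of the second 324 CPM. Within each run the SCFA libraries thus stood around the control in the first and below both controls in the second. Here the treatment and the run cannot be told apart. With all libraries and the block, Rgs9 was at -0.39, Gucy2f at 0.14 and Gucy2e at 0.00, none of them called. In males at 14 dpl the lists hold the same 3 controls and 3 SCFA libraries as the full data, all of the first run. Fitted by themselves, with 24.6% of all genes called, Rgs9bp (0.44, SE 0.11, adjusted p = 0.0202) and Pdc (0.45, SE 0.12, adjusted p = 0.0286) were higher with SCFA and Guca1a lower (-0.34, SE 0.11, adjusted p = 0.0648). In the single fit of all groups the same libraries gave adjusted p-values of 0.139, 0.121 and 0.351, so these calls rest on the separate fit. In this set Rgs9bp had 715, 634 and 749 CPM in controls and 931, 934 and 974 CPM with SCFA, without overlap.

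Between the sexes, none of the 10 was called among controls by edgeR at 3, 7 or 14 dpl, where 0.0495%, 0.0495% and 6.28% of all genes were called. At an unadjusted p under 0.05, 2 passed at 3 dpl (Rgs9, Pdc), 0 at 7 dpl and 1 at 14 dpl (Pdc). Over all genes, 1017, 766 and 3560 had such a p. DESeq2 called 0, 0 and 1 of the 10 and 12, 12 and 1942 of all genes.

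Pdc was the 1 gene of the 10 whose male and female controls did not overlap on any of the 3 days. The share of all genes that separate in this way was not computed. Male controls had 2081 to 3276 CPM at 3 dpl, 2674 to 2940 at 7 dpl and 2332 to 2618 at 14 dpl. Female controls had 3510 to 4705, 3062 to 3899 and 3097 to 4036 CPM. The males were the lower sex on each day, by -0.61 (SE 0.17, adjusted p = 0.585), -0.31 (SE 0.18, adjusted p = 0.999) and -0.45 (SE 0.18, adjusted p = 0.160). As the mean of the 3 days, a comparison added after these values had been seen, the difference was -0.46 (SE 0.10, adjusted p = 0.0281), with 1.14% of all genes and 1 of the 10 called. It was called in 13 of 13 other settings (adjusted p-values up to 0.0597) and in 40 of 42 fits that left out a library, the exceptions being female control replicate 1 at 14 dpl (adjusted p = 0.132) and replicate 2 at 3 dpl (adjusted p = 0.101). Without the library labelled female that held transcripts of chromosome Y genes it was -0.45 (adjusted p = 0.0166). Among SCFA libraries the sexes overlapped in Pdc at 3 and 14 dpl. These comparisons share their control libraries with those of SCFA.

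Over time, none of the 10 differed among controls between 3 and 7 dpl or between 7 and 14 dpl by edgeR, with 0% and 0% of all genes called. None of the 10 had an unadjusted p under 0.05 in either, DESeq2 called 0 of them, and over all genes 1293 and 1800 had such a p and DESeq2 called 14 and 34. The largest change was that of Rgs9 from 7 to 14 dpl, at 0.42 (SE 0.22, adjusted p = 0.522). Males and females were not called apart in their SCFA response for any of the 10 at 3, 7 or 14 dpl, with 0%, 0.0165% and 0% of all genes called by edgeR. At an unadjusted p under 0.05 it passed for 2 at 3 dpl (Rgs9bp, Pdc), 0 at 7 dpl and 1 at 14 dpl (Pdc), with 0 called by DESeq2 on each day. Over all genes 1495 and 2036 had such a p at 3 and 14 dpl, and DESeq2 called 3 and 0. For Pdc at 3 dpl the response of males exceeded that of females by 0.71 (SE 0.23, adjusted p = 0.527).

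Other genes of the pathway moved in both directions, and their counts are to be read against the 36.7% of all genes called in the mean of the 6 comparisons with SCFA, the 23.8% called in males at 7 dpl and the 53.3% called between the runs. In the mean of the 6, 2 of 9 rod activation genes were higher and 1 lower, among them Gngt1, the γ subunit of rod transducin (0.50, SE 0.10, adjusted p = 0.000198), Pde6a (0.20) and the channel subunit Cnga1 (-0.13). Of 8 further recovery, retinoid and calcium exchange genes, Rdh12, a retinol dehydrogenase, was higher (0.16, SE 0.06, adjusted p = 0.0359) and Abca4, the outer segment transporter of retinal conjugates, lower (-0.31, SE 0.06, adjusted p = 0.000228). None of 4 relatives of the Rgs9 complex was called in that mean, but in males at 7 dpl Rgs7bp (0.94, SE 0.20, adjusted p = 0.00148) and Rgs6 (0.48, SE 0.16, adjusted p = 0.0324) were higher. Of 6 photoreceptor transcription factors, Rorb was higher (0.24) and Esrrb lower (-0.20), and of 7 outer segment genes 3 were higher and 1 lower, with Impg2 at 0.28 and Rp1 at 0.26. Between the runs of columns, 4 of the 9 rod activation genes were higher and 2 lower, with Gngt1 at -1.19, and 4 of the 8 further recovery genes were higher and 3 lower, with Rdh8 at 1.31 and the sodium-calcium exchangers Slc24a2 at 0.85 and Slc24a1 at 0.57. One relative of Rgs9, Rgs7 (0.43), was higher, 1 factor was higher (Esrrb, 0.57) and 1 lower (Otx2, -0.37), and 4 outer segment genes were higher and 2 lower, with Cdhr1 at 0.72 and Impg1 at 0.68.

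In the 3 libraries rich in mitochondrial mRNA, shares of 11.5%, 13.8% and 14.8% went with low levels of these genes and of rod markers. Male SCFA replicate 3 at 7 dpl had the lowest rod marker sum of the 42 libraries, 41605 CPM, and male SCFA replicate 1 at 7 dpl the next, 51070 CPM. All 10 genes were lower in both than in replicate 2, the other first-run library of their group. Replicate 2 itself had the highest rod marker sum of the 42 libraries, 89692 CPM. How many of all genes were lower in both was not computed. Rcvrn had 965 and 766 CPM in replicates 1 and 3 against 1508 CPM in replicate 2, and Guca1b 1322 and 1093 CPM against 2374 CPM. In female SCFA replicate 3 at 3 dpl, with a rod sum of 57845 CPM, 9 of the 10 were lower than in replicate 1, and Guca1a was higher at 2446 against 2234 CPM. The part of the mitochondrial share in the levels was not tested.

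With the mean of each run removed, the gene most like each of the 10 over the 42 libraries was found by Pearson's r of log2(CPM + 1), as a description of libraries that share depth, composition and mean transcript length. For Grk1 it was Rp1l1 (r = 0.90), for Rgs9bp Sntb2 (0.92), for Gnb5 Ccndbp1 (0.93) and for Pdc Fam3c (0.88). For Guca1a it was the ribosomal protein gene Rpl8 (0.93), for Guca1b Ankrd33 (0.94), for Gucy2e Pde4dip (0.92) and for Rcvrn Guca1b (0.91). Gucy2f had Gucy2e (0.91), St8sia1 (0.90), Faxc (0.89), Rbm41 (0.88) and Vldlr (0.88). Rgs9 had Vash1 (0.91), Gm9821 (0.90), Sik2 (0.90), Adcy1 (0.90) and Gpam (0.89).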

How the data were processed

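Total RNA of pooled retinas was sequenced by the authors with paired reads of 150 bases, and they deposited raw counts per gene for 54532 genes. The submitters' processing notes name DESeq2 and mm10, and the aligner, counter, annotation and strand setting are not given in the sources used here. Symbols, positions and lengths came from GENCODE M21 (GRCm38), which holds 54495 of the identifiers, and promoters from RefSeq.

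The 10 genes, the pathway lists and the run of columns were chosen with earlier results of these data known. All 10 are named in every comparison, and of each pathway list at most 3 genes, those with the smallest adjusted p. Groups came from the sample titles, and the treatment tags disagree with them, reading control for every sample. Counts of 42 libraries were filtered by filterByExpr, scaled to CPM by TMM and tested in R 4.3.3 by edgeR 4.0.16 (quasi-likelihood), in a single fit of the 12 groups and the run of columns, with Benjamini-Hochberg adjustment over all genes and an adjusted p under 0.1 as the threshold. The listed libraries were fitted by pair of groups. Lists of differential genes hold the authors' comparisons, and the library names in them were used. Gucy2f and Rgs9 were given more than 1 most alike gene because these lists hold them. On simulated counts with 190 genes changed by a fold of 2 among 17531, the mean over the SCFA comparisons recovered 99.5% with 26 false calls, and males at 14 dpl 41.6% with 6. The simulated counts held no difference between the runs of columns and the same spread for all genes. How the fit does with such differences was not tested. A fold of 2 is also larger than the differences of Rgs9 and Pdc in the mean over the SCFA comparisons. Recovery of changes of their size was not tested. Relations used pandas 2.3.3 and numpy 2.4.6, and figures matplotlib 3.10.9 in Python 3.11.15. Alternatives were DESeq2 1.42.0, other scalings, filters, thresholds and libraries, a replicate block and each library left out. Totals were 14826957 to 21507527 counts, and counts of 3 or fewer were taken as the floor.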

Additional observations from a re-analysis of the deposited data

Results flagged for a closer look

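Recoverin (Rcvrn) had 1022 CPM in female SCFA replicate 3 at 3 dpl, far below the other 3 libraries of its group, of which the nearest had 1502 CPM. Its gap exceeded Dixon's critical value, in 1 of 50 sets of 4 or 5 libraries tested over the 10 genes, where chance flags about 1 in 20. Mitochondrial mRNA took 11.5% of the counts of this library.

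In 4 genes the response to SCFA differed between the runs of columns by a test of that difference, chosen after the data had been seen. Second minus first run, it was 0.99 for Guca1a, -0.87 for Rgs9, 0.46 for Rcvrn and 0.44 for Gnb5 on the log2 scale. Controls and SCFA libraries of the second run came from unlike sets of sex and day.

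In the library left out, female SCFA replicate 2 at 3 dpl, lens markers summed to 249239 CPM, where the highest control had 424 CPM. Its levels of the genes described were 78.2 CPM of Rgs9, 57.8 CPM of Gucy2f and 1560 CPM of Guca1a.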

How the results depend on the processing

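The number of calls for SCFA among the 10 genes, over the 6 comparisons and their mean, was 2. It was 3 in the first run alone, none of them Rgs9 or Pdc (Gnb5 in males at 7 dpl, Gnb5 and Guca1a in the mean), 0 without the run of columns as block, 4 with DESeq2, 4 with library totals in place of TMM, 8 without a filter on low counts, 4 with 10 counts in every library, 4 without the 3 libraries rich in mitochondrial mRNA, 10 with the listed libraries, 4 with the transcript length covariate, 1 at an adjusted p under 0.05 and 0 with an absolute log2 fold change over 1. Leaving out 1 library gave 1 to 5, with 5 without male SCFA replicate 2 or 3 at 7 dpl, 4 without female control replicate 3 at 7 dpl, and 1 without the 7 libraries whose loss ends the call of Rgs9 or Pdc. Among controls by sex on single days, the mean of the 3 days apart, the count was 0, with 1 by DESeq2, 2 without a filter, 1 with the listed libraries and 0 to 1 with a library left out (1 without male SCFA replicate 3 at 7 dpl). The call with the listed libraries was Gucy2f at 7 dpl, male minus female -0.41 (SE 0.12, adjusted p = 0.0946 by edgeR). By day the count was 0, with 2 without a filter and 0 to 0 with a library left out, and for the response between the sexes it was 0 in every setting run. Between the runs it was 7, with 2 past an absolute log2 fold change over 1 and 6 to 7 with a library left out. The cause of these changes was not tested. In the mean of the 6 comparisons with SCFA, DESeq2 called 6784 of all genes where edgeR called 6661. For most of the other settings the share of all genes called is not given here. The counts are therefore not to be read as particular to the 10 genes.

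Of single values, 5 reversed. Rgs9bp, second minus first run of columns, log2 fold change, was -0.079 with the transcript length covariate. With the listed libraries, Gucy2e, SCFA minus control, females, day 14, log2 fold change was -0.62 and Gucy2f, SCFA minus control, females, day 14, log2 fold change was -1.29, while Gucy2e, SCFA minus control, males, day 7, log2 fold change was 0.52 and Rgs9, SCFA minus control, males, day 7, log2 fold change was 0.59. A further 52 values came past the threshold and 32 fell short of it.

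Replicate numbers did not pair the libraries, since 5 of 17 same-numbered pairs had a correlation of deviations over 0.1 (range -0.29 to 0.41). With the number as a replicate block, 3 calls were made for SCFA (Gnb5 in males at 7 dpl, and Rgs9 and Gnb5 in the mean, where Pdc was lost) and 5 between the runs, and 0 by sex on single days, by day and in the response between the sexes. Pdc stayed called in the mean of the 3 days (-0.49, adjusted p = 0.0274).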
